A study of Sus scrofa with 15 samples.

Results

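The genes described here are 9 transcription regulators that shape innate lymphoid cells (ID2, ID3, NFIL3, ETS1, GATA3, RORA, AHR, TOX2 and RUNX1). They were chosen by symbol from the 29886 genes counted. All 9 had counts in these libraries and all 9 passed the filter on low counts, so that none was undetected, although AHR was close to the limit of detection.

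RNA was sequenced from 15 libraries, namely 3 FACS-purified natural killer (NK) cell populations from each of 5 pigs aged 6 months. The populations were CD8αhigh NK cells from blood, CD8αhigh NK cells from liver and CD8αdim NK cells from liver, the last of which the study regards as liver-resident. Cells of all 3 populations had been sorted as CD3−CD172a−, because porcine NK cells lack CD56, and the liver cells were obtained by flushing the organ through the portal vein. Each comparison is thus one of tissue, of CD8α level, or of both. The gate depends on CD8α and on the absence of T cell and myeloid surface markers, and it holds no positive marker that is restricted to NK cells.

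Innate lymphoid cells, which include NK cells, arise from lymphoid progenitors that must suppress the E proteins, a group of DNA-binding factors that drive B and T cell development. The ID proteins lack a DNA-binding domain and hold E proteins in inactive dimers, and NFIL3, ETS1, TOX family members and RUNX factors act around the same developmental step. GATA3 and RORA are best known for helper-like innate lymphoid cells of the type 2 kind, and AHR, a receptor for dietary and microbial ligands, for type 3 cells and for tissue residence.

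Library totals ran from 2003499 to 5680221 counts with a median of 3686363. Levels are given as CPM, edgeR's depth-scaled counts, here with TMM-adjusted library sizes, and differences as log2 fold changes from edgeR's quasi-likelihood test, with p-values adjusted by the Benjamini-Hochberg method over the 10939 genes tested and called at 0.05. CD8A itself was at 43.4 ± 10.5 CPM (SD, n = 5) in CD8αdim libraries, against 466 ± 149 in blood and 490 ± 138 in liver CD8αhigh libraries. All 11 NK cell markers on the list examined were counted in each population, with summed levels of 3396 to 5950 CPM per library. In CD8αdim cells 6 of 11 were called against blood, where 18.2% of all genes were called. NCR1 (282 against 50.8 CPM), KLRB1 (1387 against 275), KLRD1 (89.5 against 26.6) and NKG7 (1128 against 781) were higher. GZMB (32.9 against 209) and CD8A were lower. Against liver CD8αhigh cells 5 were called, 3 higher and 2 lower, with 14.6% over all genes. Among CD8αdim libraries KLRB1 ran from 193 to 2316 CPM and KLRK1 from 75.5 to 1168. The liver CD8αhigh library of pig 1 stood apart from the others of its group on the first principal component (-8.51, against -37.2 to -24.9), and the CD8αdim library of pig 3 stood apart on the second (-35.2, against 3.16 to 16.0 in the other CD8αdim libraries). Markers of B and plasma cells were higher in CD8αdim cells, where 6 of 6 tested rose against either CD8αhigh population. Their summed level was 438 to 1031 CPM in CD8αdim libraries, 21.2 to 164 in blood and 4.30 to 57.3 in liver CD8αhigh libraries, although CD79A was at 0 in all 15. Of the T cell markers, CD4, CD5 and CD28 were at 0 throughout, and the summed level was 110 to 593 CPM in CD8αdim cells, 637 to 1203 in blood and 714 to 1079 in liver CD8αhigh cells, nearly all of it from CD3G. Summed markers of myeloid cells, hepatocytes and liver endothelium reached at most 25.6, 9.74 and 7.31 CPM in any library. The 3 comparisons share their libraries in pairs and are therefore not independent of each other.

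Of the 9 genes, ID3 and TOX2 rose in CD8αdim liver NK cells. The other 7 passed the test in no comparison of this fit, which held no term for the pig. With the pig as a block, RORA was also called as lower against blood and ID2 as lower against liver CD8αhigh cells. Without the block, 2 of 9 were higher and 0 lower against blood CD8αhigh NK cells, where 18.2% of all genes tested were called, 8.62% as higher and 9.6% as lower. Against liver CD8αhigh NK cells the same 2 genes were higher and 0 lower, where 14.6% of all genes were called, 6.96% as higher and 7.68% as lower. A share of 2 in 9 is thus not far from that background, and what sets ID3 and TOX2 apart is the size of their difference. Between liver and blood CD8αhigh NK cells 0 of 9 were called, where edgeR called 0.064% of all genes, 0.0457% as higher and 0.0183% as lower. In that comparison 2 of the 9 genes had an unadjusted p under 0.05, and DESeq2 called 0. The median log2 fold change of the 9 genes was 0.20 for CD8αdim against blood, 0.20 for CD8αdim against liver CD8αhigh and 0.24 for liver CD8αhigh against blood, with 0.0060, 0.016 and -0.024 as the medians over all genes.

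**Figure D1:**
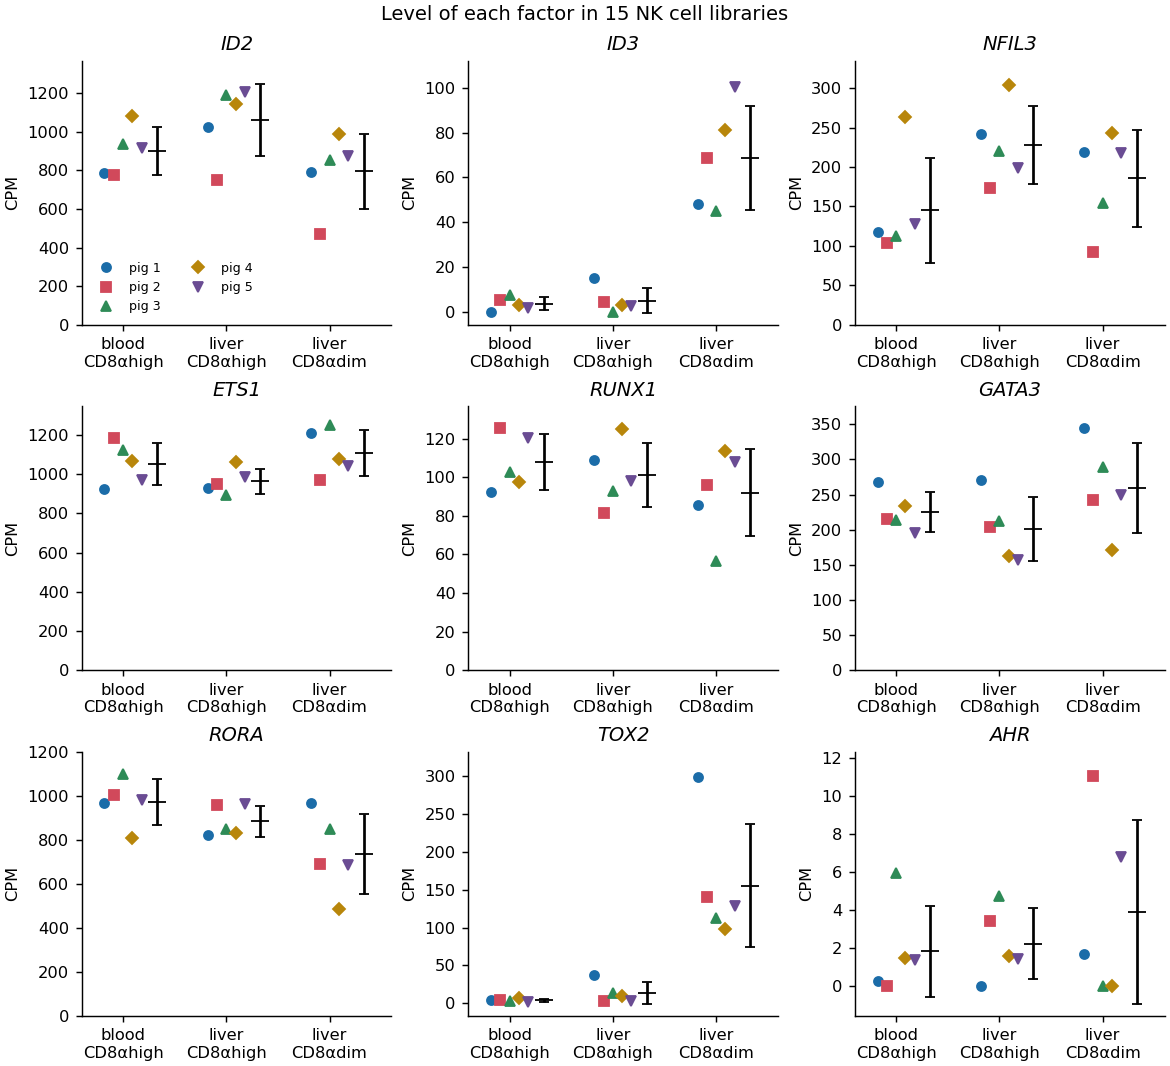
Level of each of the 9 factors in CPM (vertical axes, linear, each with its own range) in the 3 NK cell populations (horizontal axes). Coloured symbols are single libraries, coded by pig, and the black bar beside them gives the mean and SD of 5 pigs. ID3 and TOX2 are the only panels in which all 5 CD8αdim libraries lie above all 10 others.

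ID3 and ID2 encode inhibitors of E proteins with overlapping functions, ID2 being the form on which NK cell development is known to depend most. In the Sscrofa11.1 build, ID3 occupies chromosome 6, bases 81422541 to 81424169, and ID2 chromosome 3, bases 127500759 to 127503207.

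In CD8αdim liver NK cells, ID3 was at 48.2, 68.6, 44.8, 81.2 and 100.6 CPM in pigs 1 to 5. In the blood libraries it was at 0, 5.21, 7.33, 2.89 and 1.71 CPM, and in liver CD8αhigh NK cells at 14.8, 4.22, 0, 3.10 and 2.39 CPM. Every CD8αdim library was above every CD8αhigh library, while the CD8αhigh libraries of blood and liver overlapped. The counts behind these levels were 92 to 385 per CD8αdim library and 0 to 43 in the others, with 0 counts in blood of pig 1 and in liver CD8αhigh cells of pig 3, which allows up to 0.813 and 0.836 CPM respectively (3 counts).

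ID3 was 19.7-fold higher in CD8αdim cells than in blood (log2 fold change 4.30 ± 0.72 SE, edgeR adjusted p = 1.85e-04) and 14.5-fold higher than in liver CD8αhigh cells (3.86 ± 0.70, adjusted p = 4.91e-04), in 5 of 5 pigs each time. The means were 68.7 ± 23.2 CPM (SD, n = 5) in CD8αdim cells, 3.43 ± 2.89 in blood and 4.91 ± 5.77 in liver CD8αhigh cells. Blood and liver CD8αhigh cells, the neighbours at the low end of this order, differed by a log2 fold change of 0.44 with a 95% interval from -1.06 to 1.94. That small difference was positive only with the liver CD8αhigh library of pig 1, which had the highest ID3 of its group, and was -0.48 without it. The same library raised the mean of liver CD8αhigh cells, whose median was 3.10 CPM, and so lowered the fold difference between CD8αdim and liver CD8αhigh cells. Since whole populations were sequenced, fewer cells with a transcript and less of it per cell cannot be told apart for any gene described here.

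ID2 did not follow this pattern. In CD8αdim cells it was at 792, 471, 852, 988 and 873 CPM in pigs 1 to 5, in liver CD8αhigh cells at 1026, 753, 1190, 1142 and 1205 CPM, and in blood at 788, 778, 939, 1080 and 917 CPM. Each pig had less ID2 in its CD8αdim than in its CD8αhigh liver cells, yet the ranges overlapped because pig 2 was low in both. The log2 fold change was -0.42 with a 95% interval from -0.79 to -0.043 before adjustment and an edgeR adjusted p of 0.144. With the pig as a block it was -0.44 with an adjusted p of 0.0305, so this call depends on comparing cells within each animal. Against blood the difference was -0.18 (-0.55 to 0.20), and between liver and blood CD8αhigh cells 0.24 (-0.14 to 0.62), neither of which was called.

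The balance between both ID transcripts differed between populations. For every 100 counts of ID2 there were 9.13 ± 3.89 counts of ID3 (SD, n = 5) in CD8αdim libraries, against 0.381 ± 0.331 in blood and 0.495 ± 0.569 in liver CD8αhigh libraries. The lowest CD8αdim library had 5.26 and the highest CD8αhigh library 1.45, so the populations did not overlap in this ratio, which reuses the counts already tested above. As a share of ID2 plus ID3 counts, ID3 in CD8αdim cells of pig 2 made up 12.7% (exact Clopper-Pearson 95% interval 10.8 to 14.8), and in CD8αdim cells of pig 3, the lowest, 4.99% (4.05 to 6.09). The summed level of both genes was 864 ± 201 CPM in CD8αdim cells, 904 ± 125 in blood and 1068 ± 186 in liver CD8αhigh cells. The ranges of this sum overlapped, and it was lower in CD8αdim than in liver CD8αhigh cells in 5 of 5 pigs, a difference that was not tested.

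TOX2 encodes an HMG-box protein of the TOX family that is involved in human NK cell maturation. It lies on chromosome 17 from 46433005 to 46577076 and had the largest difference of the 9 genes between CD8αdim cells and blood. CD8αdim cells of pigs 1 to 5 had 299, 140, 113, 98.0 and 129 CPM of TOX2. Blood cells had 4.34, 4.11, 2.99, 6.87 and 1.02 CPM, and liver CD8αhigh cells 37.6, 3.16, 13.1, 8.96 and 2.63 CPM. No CD8αhigh library reached the lowest CD8αdim library, and pig 1 had the highest level in both liver populations.

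TOX2 was 40.1-fold higher in CD8αdim cells than in blood (log2 fold change 5.33 ± 0.62 SE, edgeR adjusted p = 1.96e-06) and 12.2-fold higher than in liver CD8αhigh cells (3.61 ± 0.55, adjusted p = 7.42e-05), again in 5 of 5 pigs. Its mean was 156 ± 81.5 CPM (SD, n = 5) in CD8αdim cells, 13.1 ± 14.4 in liver CD8αhigh cells and 3.86 ± 2.13 in blood. Liver CD8αhigh cells were above blood in 4 of 5 pigs with a log2 fold change of 1.72 (95% interval 0.48 to 2.96), which edgeR did not call (unadjusted p = 0.00887, adjusted p = 0.705). The liver CD8αhigh library of pig 1, which stood apart from its group, carried much of this: without it the difference between liver and blood CD8αhigh cells was 0.85, and that between CD8αdim and liver CD8αhigh cells 4.47.

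**Figure D2:**
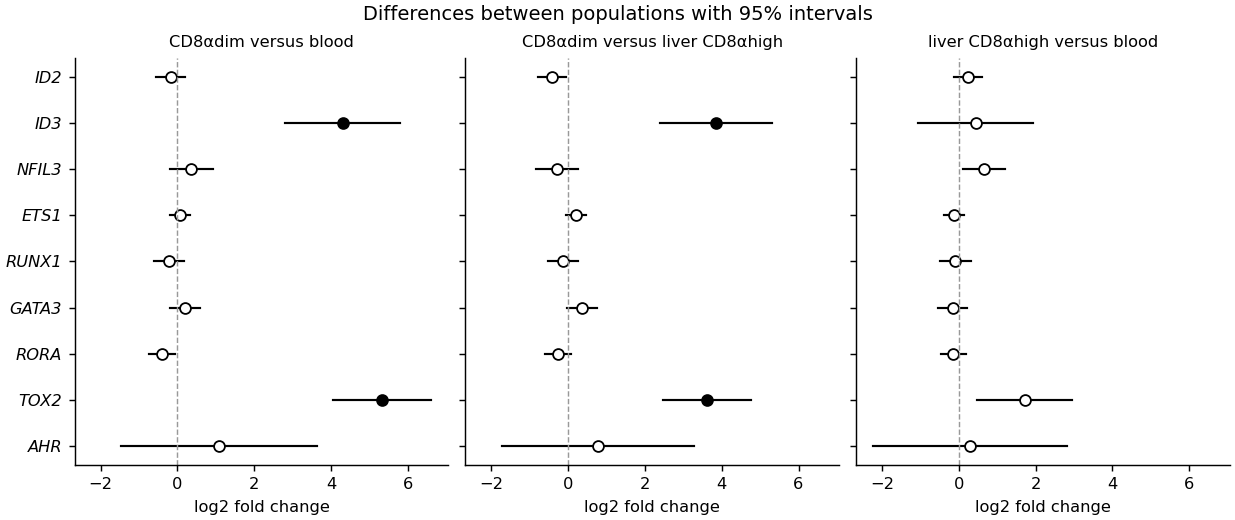
Log2 fold changes (horizontal axes) of the 9 factors in the 3 comparisons (panels), with 95% intervals as horizontal bars. Filled circles are genes with an adjusted p under 0.05 in edgeR's quasi-likelihood test, which are ID3 and TOX2 in both comparisons with CD8αdim cells, and the intervals of AHR are the widest.

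The genes whose pattern was most like these 2 over the 15 libraries were found by the mean absolute difference between centred log2 CPM values among 9589 candidates. For ID3 they included ARHGAP18 (mean difference 0.75) and USP18 (0.84), and for TOX2 they were F2R (0.45), DENND2D (0.58) and again ARHGAP18 (0.59). F2R, which encodes a thrombin receptor, was at 253 ± 86.7 CPM in CD8αdim cells, 20.3 ± 16.0 in liver CD8αhigh cells and 7.81 ± 2.39 in blood. ARHGAP18, which encodes a GTPase-activating protein, was at 193 ± 51.6, 20.1 ± 25.4 and 5.53 ± 1.87 CPM in the same order.

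B and plasma cell markers moved together with ID3 and TOX2 between populations. Their part in these differences was not tested. Within CD8αdim cells the library with the highest ID3, that of pig 5, had the lowest sum of these markers (438 CPM), and the library with the highest TOX2, that of pig 1, had the next lowest (486 CPM). The CD8αdim libraries with the highest sums, those of pig 2 (1031 CPM) and pig 4 (1017 CPM), held 68.6 and 81.2 CPM of ID3 and 140 and 98.0 CPM of TOX2. In liver CD8αhigh cells the order was another one: the library with the highest sum, that of pig 1 (57.3 CPM), had the highest ID3 (14.8 CPM) and TOX2 (37.6 CPM), and that with the lowest sum, of pig 5 (4.30 CPM), had the lowest TOX2 (2.63 CPM). In blood the library with the highest sum, that of pig 3 (164 CPM), had the highest ID3 (7.33 CPM) but not the highest TOX2 (2.99 CPM), and that with the lowest sum, of pig 5 (21.2 CPM), had the lowest TOX2 (1.02 CPM). Among the markers, MS4A1, which encodes CD20, was at 267 ± 134 CPM in CD8αdim cells, 29.6 ± 20.5 in blood and 7.50 ± 9.70 in liver CD8αhigh cells.

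**Figure D3:**
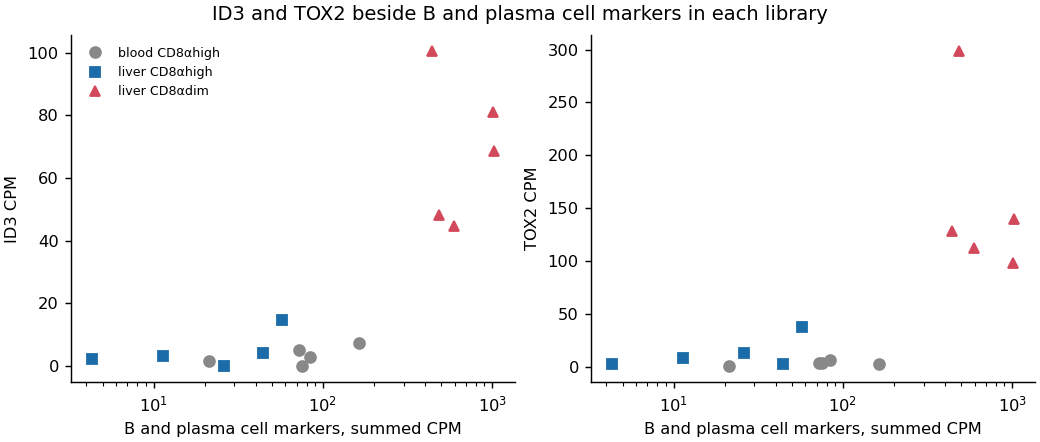
ID3 (left) and TOX2 (right) in CPM on linear vertical axes against the summed CPM of 7 B and plasma cell markers on a logarithmic horizontal axis, one symbol per library. CD8αdim libraries lie apart from both CD8αhigh populations on both axes, and the library with the highest ID3 has the lowest marker sum within the CD8αdim group but the highest within each CD8αhigh group.

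NFIL3 encodes a basic leucine zipper repressor required early in the innate lymphoid lineage, and it lies on chromosome 14 from 2588887 to 2603774. Its level was 118, 103, 113, 263 and 128 CPM in blood of pigs 1 to 5, 242, 174, 220, 304 and 199 CPM in liver CD8αhigh cells, and 219, 92.2, 155, 243 and 218 CPM in CD8αdim cells. Liver CD8αhigh cells were above blood in 5 of 5 pigs, but the groups overlapped because the blood library of pig 4 exceeded 4 of the 5 liver CD8αhigh libraries. The log2 fold change was 0.65 (95% interval 0.10 to 1.21), with an unadjusted p of 0.0226 and an edgeR adjusted p of 0.839. CD8αdim cells differed from blood by 0.36 (-0.19 to 0.91) and from liver CD8αhigh cells by -0.29 (-0.85 to 0.26).

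The animals differed in NFIL3 in a similar way in all 3 populations. Pig 4 had the highest and pig 2 the lowest level in blood, in liver CD8αhigh cells and in CD8αdim cells alike, with a ratio of 2.55, 1.75 and 2.64 between them. Pig 2 also had the lowest ID2 in all 3 populations, and pig 1 had the highest GATA3 in all 3. Blood of pig 4 also held the most erythrocyte marker counts (315 CPM summed, against at most 56.6 in any other library), whose part in its NFIL3 level was not tested. These rankings of pigs are given as a description.

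**Figure D4:**
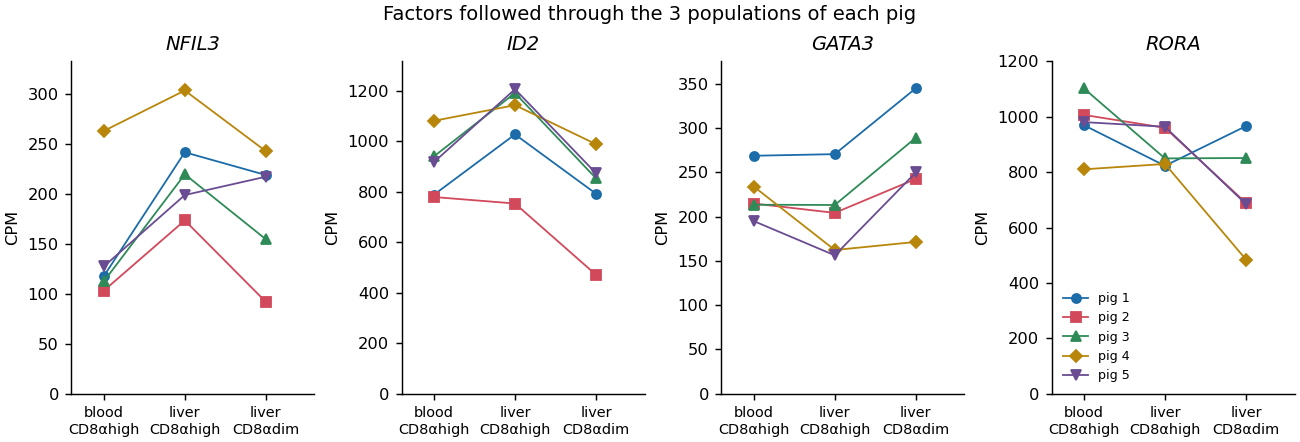
NFIL3, ID2, GATA3 and RORA in CPM (vertical axes from 0) in the 3 populations (horizontal axes), with a line joining the 3 libraries of each pig. Pig 4 is highest and pig 2 lowest for NFIL3 in each population, and all 5 lines of ID2 fall from liver CD8αhigh to CD8αdim cells.

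GATA3 and RORA are shared by type 2 innate lymphoid cells and by T cells, and both are also expressed in NK cells. GATA3 lies on chromosome 10 from 63367684 to 63397977. It was at 345, 242, 289, 171 and 250 CPM in CD8αdim cells of pigs 1 to 5, at 270, 204, 213, 162 and 156 CPM in liver CD8αhigh cells and at 269, 215, 213, 234 and 195 CPM in blood. Each pig had more GATA3 in its CD8αdim than in its CD8αhigh liver cells, with a log2 fold change of 0.37 (95% interval -0.021 to 0.75, edgeR adjusted p = 0.228), while the groups overlapped. The differences of CD8αdim and of liver CD8αhigh cells from blood were 0.20 (-0.18 to 0.59) and -0.16 (-0.55 to 0.22).

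RORA, an orphan nuclear receptor gene, spans chromosome 1 from 110719004 to 111482807. In CD8αdim cells it was at 966, 689, 851, 484 and 685 CPM in pigs 1 to 5, in blood at 969, 1007, 1102, 810 and 981 CPM, and in liver CD8αhigh cells at 823, 960, 850, 830 and 964 CPM. CD8αdim cells were below blood in 5 of 5 pigs, by a margin that was small in pig 1 and wide in pigs 2 to 5. The log2 fold change was -0.41 (95% interval -0.74 to -0.073, edgeR adjusted p = 0.0863), and with the pig as a block it was -0.42 with an adjusted p of 0.0492. Against liver CD8αhigh cells it was -0.27 (-0.60 to 0.064), with lower levels in 3 of 5 pigs.

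Markers of type 2 cells were examined beside these genes. Of 6 such markers, IL4 was at 0 in all libraries, IL13 was counted only in CD8αdim cells (at most 9 counts) and 4 were tested, of which IL1RL1 was called. IL1RL1, which encodes the IL-33 receptor, was at 31.1, 12.5, 66.2, 47.7 and 42.1 CPM in CD8αdim cells and at no more than 6.91 CPM in any CD8αhigh library. Its log2 fold change was 5.37 ± 0.81 SE against blood (edgeR adjusted p = 5.41e-05) and 3.87 ± 0.72 against liver CD8αhigh cells (adjusted p = 6.53e-04). IL17RB, PTGDR2 and IL5 were not called, with log2 fold changes of -0.13, 0.57 and -0.27 against blood. The part of type 2 cells in the levels of GATA3 and RORA was not tested.

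ETS1 and RUNX1 encode DNA-binding factors that act broadly in lymphocyte development. ETS1, on chromosome 9 from 55377264 to 55512180, had the smallest SD of log2 CPM of the 9 genes in each population. Its level ran from 924 to 1185 CPM in blood, from 896 to 1063 in liver CD8αhigh cells and from 973 to 1252 in CD8αdim cells, so that all 3 ranges overlapped. The log2 fold changes were 0.074 (95% interval -0.19 to 0.34) for CD8αdim against blood, 0.20 (-0.061 to 0.46) for CD8αdim against liver CD8αhigh and -0.13 (-0.39 to 0.14) for liver CD8αhigh against blood. The ETS1 locus overlaps 2 long noncoding RNA genes, of which LOC110255459 was itself counted 102 to 1267 times per library, and reads could be split between them.

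RUNX1, on chromosome 13 from 198371835 to 198635648, had a mean of 108 ± 14.5 CPM (SD, n = 5) in blood, 101 ± 16.7 in liver CD8αhigh cells and 92.0 ± 22.6 in CD8αdim cells. Its lowest value, 56.5 CPM, belonged to the CD8αdim library of pig 3, and the other 14 libraries lay between 81.5 and 126 CPM. The log2 fold changes were -0.22 (95% interval -0.62 to 0.17), -0.14 (-0.53 to 0.26) and -0.087 (-0.48 to 0.31) in the same order of comparisons.

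AHR, on chromosome 9 from 86511866 to 86555950, was the least abundant by counts. It was at 1.66, 11.0, 0, 0 and 6.79 CPM in CD8αdim cells of pigs 1 to 5, at 0.27, 0, 5.97, 1.45 and 1.36 CPM in blood and at 0, 3.43, 4.74, 1.55 and 1.43 CPM in liver CD8αhigh cells. No library held more than 26 counts and 4 held 0, which in the CD8αdim library of pig 3 still allows 1.46 CPM. The log2 fold changes were 1.08 (95% interval -1.46 to 3.62), 0.79 (-1.72 to 3.29) and 0.29 (-2.23 to 2.82), so that a change of several fold was not detectable with these counts. The AHR locus overlaps 2 long noncoding RNA genes, both at 0 counts in all libraries, and how reads in the overlap were assigned is not known. Of the type 3 cell markers, IL17A and IL17F had 0 counts in all libraries, and KIT was the single one tested. KIT ran from 1.25 to 82.6 CPM in CD8αdim cells, from 4.70 to 11.3 in blood and from 0 to 7.65 in liver CD8αhigh cells. It was higher in CD8αdim cells in 4 of 5 pigs against either population but was not called (1.79 against blood, edgeR adjusted p = 0.129, and 2.30 against liver CD8αhigh cells, adjusted p = 0.0610).

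The partners and relatives of these factors were counted as whole lists, 58 genes in all, of which 57 were in the data and 44 passed the filter. In CD8αdim cells 15 of the 44 were called against blood, 8 higher and 7 lower, and 13 against liver CD8αhigh cells, 6 higher and 7 lower. Over all genes tested 18.2% and 14.6% were called in these comparisons. With the pig as a block, 18 were called against blood (8 higher and 10 lower) and 14 against liver CD8αhigh cells (6 higher and 8 lower), by the addition of NQO1, PER1 and TOX against blood and of TOX against liver CD8αhigh cells. The median log2 fold changes of the 44 genes were -0.026 and 0.12. Between liver and blood CD8αhigh cells edgeR called 0 of 44 and 0.064% of all genes, with 3 at an unadjusted p under 0.05 and 0 called by DESeq2. With single pigs left out the counts fell to as low as 9 (without pig 2) against blood and 7 (without pig 5) against liver CD8αhigh cells, so several of the smaller differences rest on all 5 animals.

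Of the 3 E protein genes, the partners of the ID proteins, 2 rose in CD8αdim cells against blood and 1 against liver CD8αhigh cells. TCF4 was at 49.8, 77.3, 62.8, 21.9 and 30.8 CPM in CD8αdim cells of pigs 1 to 5, and at 0 to 14.7 CPM in the 10 CD8αhigh libraries. No CD8αhigh library reached the CD8αdim range. The log2 fold change was 2.57 ± 0.69 SE against blood (edgeR adjusted p = 0.0114, 0.0846 without pig 2) and 3.52 ± 0.73 against liver CD8αhigh cells (adjusted p = 0.00162). TCF3, which encodes E12 and E47, was 107 ± 14.9 CPM against 75.8 ± 5.44 in blood (0.50, adjusted p = 0.0329), a call lost in 6 of 15 other settings. TCF12 was not called (-0.31 against blood). E proteins are also abundant in B cells, whose markers differed between the same populations, and their part in TCF4 was not tested. The ID family members ID1 and ID4 did not pass the filter, with at most 14 and 0 counts per library.

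Within the RUNX family, RUNX2 and RUNX3 differed in opposite directions while RUNX1 was not called. RUNX2 was at 179, 188, 133, 117 and 250.0 CPM in CD8αdim cells and at 59.2 to 127 CPM in the CD8αhigh libraries of both tissues, among which the blood library of pig 4 reached into the CD8αdim range. It was higher in CD8αdim cells than in blood in 4 of 5 pigs (1.04 ± 0.22 SE, edgeR adjusted p = 0.00196) and than in liver CD8αhigh cells in all 5 (1.12 ± 0.22, adjusted p = 0.00125). RUNX3, a regulator of cytotoxic lymphocytes, was at 1012, 547, 1286, 327 and 546 CPM in CD8αdim cells and at 1290 to 1815 CPM in blood, without overlap. It was lower by a log2 fold change of -1.07 ± 0.25 (adjusted p = 0.00479) against blood and of -0.75 ± 0.25 (adjusted p = 0.0497) against liver CD8αhigh cells, the latter being lost in 10 of 15 other settings. CBFB, the shared beta subunit of RUNX proteins, was not called (-0.027 and -0.25). Of 8 T cell markers 3 were tested, and CD3G was called as lower in CD8αdim cells than in blood (289 against 865 CPM), while CD3D (8.43 against 3.78 CPM) and CD3E (2.12 against 10.2 CPM) were not called. The cells had been depleted of CD3+ cells and sorted as CD3−, and the part of T cells in the level of RUNX3 was not tested.

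Of the genes for REV-ERB repressors, which compete with ROR proteins for the same DNA sites and which control NFIL3, both fell in CD8αdim cells against blood and 1 of 2 against liver CD8αhigh cells. NR1D1 was at 19.9, 13.4, 22.9, 8.99 and 23.0 CPM in CD8αdim cells of pigs 1 to 5, at 78.5 to 128 CPM in blood and at 64.8 to 96.2 CPM in liver CD8αhigh cells. The CD8αdim range was thus far below both others, with log2 fold changes of -2.51 ± 0.25 SE (edgeR adjusted p = 2.07e-07) and -2.21 ± 0.24 (adjusted p = 1.31e-06). NR1D2 was lower against blood (-1.10 ± 0.34, adjusted p = 0.0265), a call lost in 4 of 15 other settings, and was not called against liver CD8αhigh cells (-0.91, adjusted p = 0.0799). Of the 6 NFIL3-related bZIP and clock genes, 0 were called against blood (PER1 -0.76, edgeR adjusted p = 0.0610, 0.0343 with the pig as a block), and PER1 was lower against liver CD8αhigh cells (-0.82, adjusted p = 0.0482), which was lost in 9 of 15. RORB did not pass the filter.

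Of the other lists, the GATA cofactor ZFPM1 was lower against blood (-1.17 ± 0.34 SE, edgeR adjusted p = 0.0184, lost in 4 of 15 other settings). The AHR target TIPARP was higher against blood (1.09 ± 0.28, adjusted p = 0.00882, 0.0638 without pig 2), at 40.5 to 69.2 CPM in CD8αdim cells and 11.6 to 37.2 CPM in blood without overlap. The AHR repressor gene AHRR had a mean of 8.53 CPM in CD8αdim cells against 1.90 in blood and was not called (2.14, adjusted p = 0.189). NQO1, another AHR target, had a mean of 6.85 CPM in CD8αdim cells against 26.9 in blood, with a lower level in 5 of 5 pigs, and was not called either (-2.04, adjusted p = 0.0544, 0.0247 with the pig as a block), nor was ARNT (0.061). Of 8 ETS family genes tested, 0 were called against blood, and ETS2 (4.42, adjusted p = 0.0317) and ETV6 (3.05, adjusted p = 0.0280) were higher against liver CD8αhigh cells at mean levels of 9.93 and 14.4 CPM. Those calls were lost in 3 of 11 and 4 of 15 other settings. TOX and TOX4 were not called in any comparison, with -0.49 and 0.14 against blood. With the pig as a block, TOX was called as lower against blood (-0.49, edgeR adjusted p = 0.0444) and against liver CD8αhigh cells (-0.53, adjusted p = 0.0338). TOX3 was at 0 in all libraries.

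Among 14 further innate lymphoid factors that passed the filter, 7 were called against blood, 4 higher and 3 lower. EOMES, which encodes a T-box factor of NK cells, was 677 ± 147 CPM (SD, n = 5) in CD8αdim cells against 39.5 ± 21.2 in blood, and TBX21, which encodes T-bet, was 195 ± 65.9 against 1143 ± 105. ZNF683, which encodes HOBIT, was 8.87 ± 7.34 CPM against 587 ± 58.7 (log2 fold change -6.16 ± 0.41 SE, edgeR adjusted p = 1.29e-09). ZBTB16, which encodes PLZF, a marker of innate lymphoid precursors, was 183 ± 45.1 against 96.0 ± 14.2 CPM (0.93 ± 0.20, adjusted p = 0.00197). STAT5B was lower (-0.68, adjusted p = 0.00246). PRDM1 and IKZF2 were higher by 0.52 and 0.56 (adjusted p = 0.0346 and 0.0378), calls that were lost in 7 and 6 of 15 other settings. PRDM1 was not called against liver CD8αhigh cells (0.081), nor was IKZF2 (0.35). Against that population 6 of the 14 were called, namely EOMES (3.24) and ZBTB16 (0.65) as higher and TBX21 (-2.60), ZNF683 (-6.11), GFI1 (-0.87) and STAT5B (-0.46) as lower, with edgeR adjusted p from 1.56e-09 to 0.0412. The calls of ZBTB16 and STAT5B there were lost in 5 and 8 of 15 other settings. TCF7, LEF1, IKZF1, NOTCH1 and NOTCH2 were not called against either population, and BCL11B and MAF did not pass the filter.

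**Figure D5:**
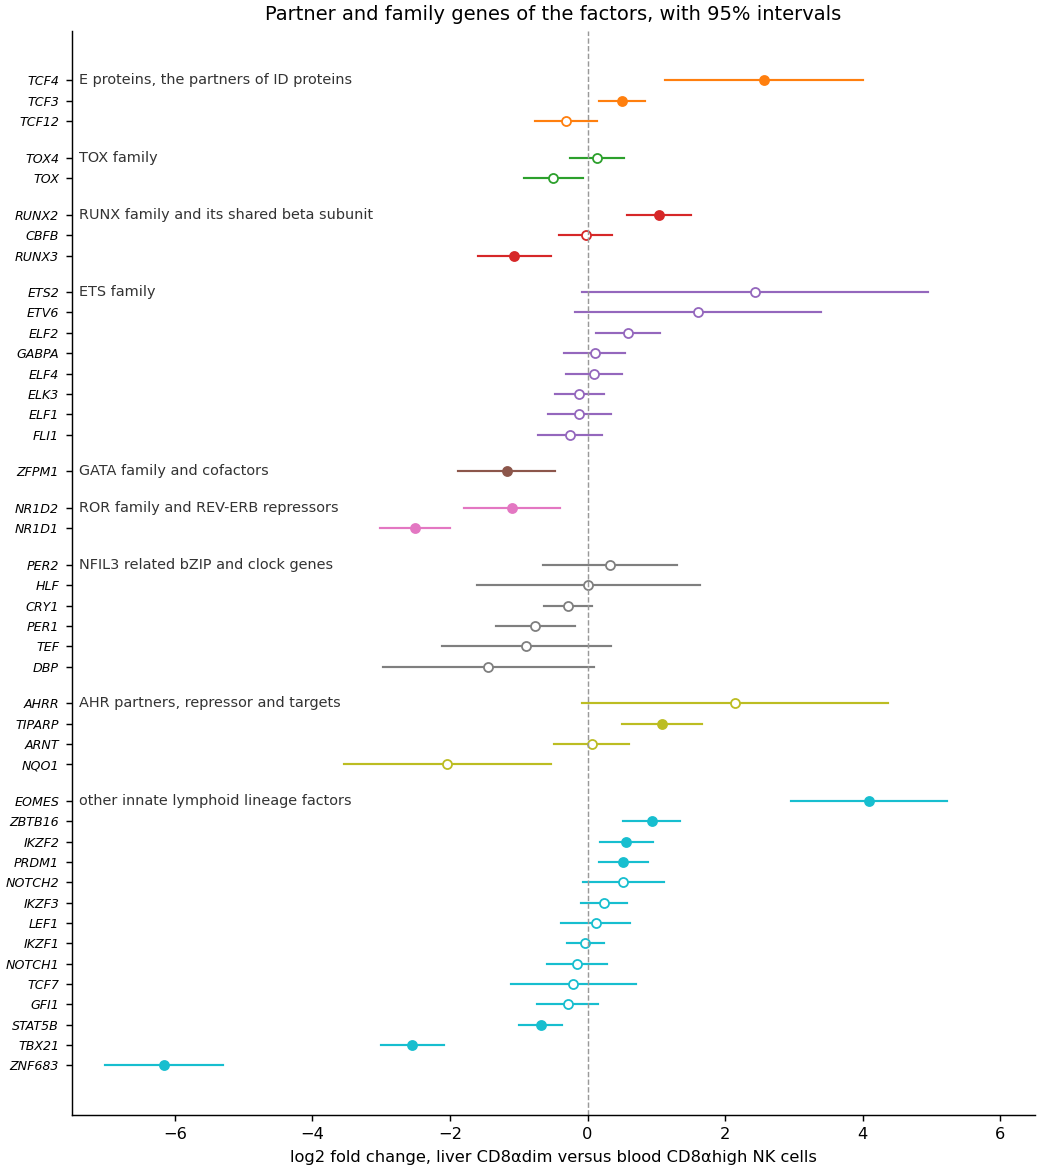
Log2 fold change between CD8αdim liver and CD8αhigh blood NK cells (horizontal axis) with 95% intervals for partner and family genes tested, grouped by list and ordered by value. Filled circles are the 15 genes with an adjusted p under 0.05, from EOMES at 4.09 to ZNF683 at -6.16, and open circles are the others.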

How the data were processed

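RNA from FACS-purified cells was made into QuantSeq 3′ libraries, trimmed with QuasR and aligned with Rhisat2 to the pig genome version 11.1 by the authors, who deposited raw counts per gene. How reads were assigned to genes, with or without strand, and what was done with multi-mapping reads is not given in the sources used here. All 15 columns matched a sample. The test was that of edgeR 4.0.16 under R 4.3.3 (TMM, default filter by population, quasi-likelihood test, Benjamini-Hochberg adjustment over 10939 genes) in 1 fit of 3 populations. CPM used the library size of the tested genes after TMM. Log2 CPM had a prior count of 2. DESeq2 1.42.0, other scalings, filters and fits, and leaving out pigs were tried. Scripts were tested on simulated data. Plots come from matplotlib 3.10.9 under Python 3.11.15. Coordinates are from RefSeq, Sscrofa11.1.

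The genes and lists were chosen with earlier results of these data known. Of the lists, genes called at an adjusted p of 0.05 are named with values, and others as needed to account for a list; a few genes are not reported here. Same-numbered libraries come from the same pig, by the labels' donor number and the methods. Deviations from group means correlated at 0.107 on average within pigs (15 pairs, -0.019 to 0.193) and at -0.027 between pigs. Intervals of shares and limits at 0 cover counting error only.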

Additional observations from a re-analysis of the deposited data

Results flagged for a closer look

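In 4 of 27 groups of 5 libraries (9 genes in 3 populations), the highest library lay far from the others by Dixon's criterion. Chance flags about 1 in 20 such groups if the values are normally distributed, which was not tested for these CPM on a linear scale. ID3 in liver CD8αhigh cells of pig 1 was at 14.8 CPM, with the next library at 4.22 CPM. TOX2 in CD8αdim cells of pig 1 was at 299 CPM, with the next at 140 CPM. NFIL3 in blood of pig 4 was at 263 CPM, with the next at 128 CPM. AHR in blood of pig 3 was at 5.97 CPM, with the next at 1.45 CPM, which rests on 22 and 4 counts.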

How the results depend on the processing

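Each comparison was repeated under 15 other settings, 3 of them chosen after seeing the data (leaving out the liver CD8αhigh library of pig 1, the CD8αdim library of pig 3 or the blood library of pig 1). ID3 and TOX2 kept their direction and their call in both comparisons with CD8αdim cells in all 15, with log2 fold changes of 3.97 to 4.91 and 5.01 to 5.73 against blood and of 3.50 to 4.89 and 3.39 to 4.47 against liver CD8αhigh cells. The count of the 9 genes called stayed at 2, 2 and 0, except with the replicate block for the pig, which gave 3, 3 and 0 by adding RORA against blood (-0.42) and ID2 against liver CD8αhigh cells (-0.44), and changed no other call among the 9. The difference of ID3 between liver and blood CD8αhigh cells, not called, ranged from -0.80 to 1.25. AHR did not pass the filter in 4 of the 15 settings. Genes called between CD8αdim and liver CD8αhigh cells numbered 1601, and 1051 to 1764 with 1 pig or 1 library left out, the fewest without pig 5. Genes called between liver and blood CD8αhigh cells numbered 7, but 24 with DESeq2, 18 without a filter, 4 with robust dispersion, 16 in a fit of only those 2 populations, 0 to 8 with 1 pig left out (0 without pig 2, 2 without pig 1 or pig 4, 3 without pig 5), 12 without the CD8αdim library of pig 3 and 2 without the blood library of pig 1. Of the partner and family genes, 9 to 14 were called against blood with 1 pig left out, and 7 to 11 against liver CD8αhigh cells (8 without pig 1, 2 or 4), with 7 in a fit of only those 2 populations. Fits with fewer pigs or populations hold fewer libraries, and otherwise the cause was not tested. Low counts limit AHR, at most 26 a library, where the part of depth and of the overlapping genes was not tested, and ID3 in CD8αhigh cells.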
